A study of Mus musculus with 7 samples.

Results

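Forkhead (Fox) transcription factor genes were examined for H3K27-Ac, a histone mark of active promoters and enhancers, in cell clones grown out of mouse skin tumours. The members are the protein-coding genes of the GENCODE annotation of GRCm38 whose symbol is Fox, a letter from a to s and a number, and 44 of 21938 protein-coding genes met this rule. ChIP-seq peak lists of 3 clones were used. Each clone was labelled FVB/129P2 backcross, with the genotype *Cdkn2ab*, and all 3 share the germline loss of the cell cycle inhibitors p15Ink4b, p16Ink4a and p19Arf, made with an actin-driven Cre. All samples share this genotype and no treatment is labelled. Each clone was picked from soft agar out of a different skin carcinoma, so that a list describes the descendants of few cells of a single tumour. The list of clone 1 came from 1 H3K27-Ac library, that of clone 2 from 1 and that of clone 3 from 2 pooled libraries, and 3 IgG libraries, of clones 1 and 3, were in the series.

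Forkhead factors bind DNA through a winged-helix domain and many of them recognise the letters TGTTTAC. The Foxa proteins can open closed chromatin, the Foxo proteins restrain growth until AKT phosphorylates them and drives them out of the nucleus, *Foxm1* drives genes of mitosis, and the Foxc, *Foxd1*, Foxf and *Foxl1* proteins pattern mesenchyme. In skin, *Foxn1* is needed for hair shafts (it is the nude gene), *Foxq1* for the satin hair structure, *Foxi3* and *Foxe1* act in hair follicles, and *Foxd3* is a factor of the neural crest and melanocyte lineage.

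The lists held 29182, 49587 and 29277 peaks of clones 1, 2 and 3, and the median peak rested on 37, 34 and 53 ChIP reads. These summit reads are not in the lists and were solved from the fold enrichment and p of each peak. The weakest peaks had 13, 12 and 25 reads, so that a weaker site could not have been listed and an unlisted promoter is one without a detectable peak at this depth. Fold enrichment, the ChIP signal at the summit over its local control background, is the value of a single peak and differs in scale between the lists (median 7.70, 7.14 and 5.38), so it is given beside its percentile among the peaks of the same list. Of the markers of epidermal keratinocytes, 1 of 8 had a promoter peak in all 3 clones (*Perp*), 3 had one in a single clone (*Krt14* in clone 1, *Sfn* and *Col17a1* in clone 2) and 4 in none (*Krt5*, *Trp63*, *Dsc3* and *Dsg3*). For hair follicle the counts in all and in none were 2 of 6 (*Sox9* and *Cdh3*) and 2 (*Lef1* and *Krt17*), for fibroblasts and mesenchyme 4 of 9 (*Vim*, *Twist1*, *Prrx1* and *Pdgfrb*) and 1 (*Thy1*), for blood 0 of 4 and 3, for endothelium 0 of 3 and 2, and for melanocytes 2 of 4 (*Mitf* and *Pmel*) and 2 (*Tyr* and *Dct*). For comparison, the shares of the 21938 protein-coding genes with promoter marking were 46.5% in every clone and 42.6% in none. The marker counts are small and were not tested against these shares. The part of the cell type in the values below was not tested.

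The promoters of 7 windows are shown because they carry the contrast in the data: those of the 3 members with the highest mean percentile of fold enrichment, and those of 3 members that had no promoter peak in any clone although their CpG content was the highest among such members. Each has 300 bases, 250 before the start and 50 after it, in GRCm38.p6, and capitals mark the CpG dinucleotides. The sequences are those of the RefSeq promoter table, except for the GENCODE start of *Foxn3*, which was read from the same build after the RefSeq start of this gene was seen to lie outside its peaks, the nearest being 17405, 17585 and 17752 bp away in clones 1, 2 and 3.
*Foxj3*, chr4:119539411-119539710, plus strand: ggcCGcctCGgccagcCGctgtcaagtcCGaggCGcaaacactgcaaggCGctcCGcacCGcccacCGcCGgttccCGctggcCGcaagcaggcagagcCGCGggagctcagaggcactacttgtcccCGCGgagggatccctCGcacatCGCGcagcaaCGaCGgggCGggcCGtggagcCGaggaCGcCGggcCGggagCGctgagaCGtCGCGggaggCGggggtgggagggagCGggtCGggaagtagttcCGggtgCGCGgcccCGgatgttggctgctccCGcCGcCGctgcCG
*Foxo3*, chr10:42276646-42276945, minus strand: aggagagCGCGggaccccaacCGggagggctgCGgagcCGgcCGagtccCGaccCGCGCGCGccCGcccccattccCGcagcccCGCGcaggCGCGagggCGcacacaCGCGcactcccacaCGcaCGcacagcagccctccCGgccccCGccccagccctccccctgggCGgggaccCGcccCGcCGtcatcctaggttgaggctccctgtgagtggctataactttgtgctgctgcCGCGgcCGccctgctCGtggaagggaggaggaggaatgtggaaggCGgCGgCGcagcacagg
*Foxn3*, RefSeq start, chr12:99450025-99450324, minus strand: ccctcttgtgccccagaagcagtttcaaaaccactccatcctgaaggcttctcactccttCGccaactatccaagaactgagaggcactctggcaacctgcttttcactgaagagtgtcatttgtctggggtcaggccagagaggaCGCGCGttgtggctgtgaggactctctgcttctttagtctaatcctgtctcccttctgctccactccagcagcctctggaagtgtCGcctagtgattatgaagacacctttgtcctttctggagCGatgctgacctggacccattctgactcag
*Foxn3*, GENCODE start under the peak, chr12:99393023-99393322, minus strand: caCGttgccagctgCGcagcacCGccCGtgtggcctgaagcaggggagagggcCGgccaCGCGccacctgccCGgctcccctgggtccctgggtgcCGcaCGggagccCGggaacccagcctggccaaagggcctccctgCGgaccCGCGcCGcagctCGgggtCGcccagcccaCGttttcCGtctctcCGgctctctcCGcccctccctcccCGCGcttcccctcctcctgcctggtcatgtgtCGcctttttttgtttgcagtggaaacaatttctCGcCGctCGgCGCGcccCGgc
*Foxa1*, chr12:57546062-57546361, minus strand: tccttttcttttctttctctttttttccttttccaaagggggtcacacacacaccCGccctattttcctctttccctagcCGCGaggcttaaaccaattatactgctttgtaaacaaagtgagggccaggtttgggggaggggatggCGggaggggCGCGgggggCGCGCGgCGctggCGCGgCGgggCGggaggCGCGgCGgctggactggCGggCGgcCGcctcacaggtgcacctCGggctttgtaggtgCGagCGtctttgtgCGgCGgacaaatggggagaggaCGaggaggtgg
*Foxi3*, chr6:70956356-70956655, plus strand: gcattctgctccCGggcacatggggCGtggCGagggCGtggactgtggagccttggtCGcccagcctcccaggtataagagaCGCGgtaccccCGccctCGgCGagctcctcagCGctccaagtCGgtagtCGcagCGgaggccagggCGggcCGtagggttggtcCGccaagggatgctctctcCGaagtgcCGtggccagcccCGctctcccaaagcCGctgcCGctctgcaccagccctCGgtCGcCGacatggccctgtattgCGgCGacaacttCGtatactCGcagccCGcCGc
*Foxd3*, chr4:99656049-99656348, plus strand: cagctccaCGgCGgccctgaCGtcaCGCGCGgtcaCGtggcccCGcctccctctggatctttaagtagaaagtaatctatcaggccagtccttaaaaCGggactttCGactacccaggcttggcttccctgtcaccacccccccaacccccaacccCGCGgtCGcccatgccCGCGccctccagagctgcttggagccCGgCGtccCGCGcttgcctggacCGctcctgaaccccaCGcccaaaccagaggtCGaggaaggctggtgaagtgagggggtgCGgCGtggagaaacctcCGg

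Promoter marking divided the family, as it divided protein-coding genes in general. A promoter peak, meaning a peak within 1 kb of any annotated start, was found for 17 members in all 3 clones (38.6%, with 46.5% of all protein-coding genes), for 8 in 1 or 2 clones (18.2%, with 10.9%) and for 19 in none (43.2%, with 42.6%). The 17 were *Foxa3*, *Foxc1*, *Foxc2*, *Foxd1*, *Foxf2*, *Foxj2*, *Foxj3*, *Foxk1*, *Foxk2*, *Foxm1*, *Foxn2*, *Foxn3*, *Foxo1*, *Foxo3*, *Foxp1*, *Foxp3* and *Foxp4*. Per clone the counts were 21, 25 and 17 of 44 (47.7%, 56.8% and 38.6%), where all protein-coding genes had 49.8%, 56.9% and 48.1%. Every member marked in clone 3 was marked in clones 1 and 2 as well. This was nearly so for protein-coding genes in general, of which 10557 were marked in clone 3 and 10209 in all 3 clones. *Foxd2*, *Foxf1*, *Foxo4* and *Foxo6* had a peak in clones 1 and 2 and not in clone 3 (9.09%, with 2.98% of all genes), and 4 members, among them *Foxa2*, *Foxj1* and *Foxs1*, in clone 2 alone (9.09%, with 6.15%). There is 1 condition and 1 list per clone, so these are counts set beside the share of all genes and not tests.

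**Figure D1:**
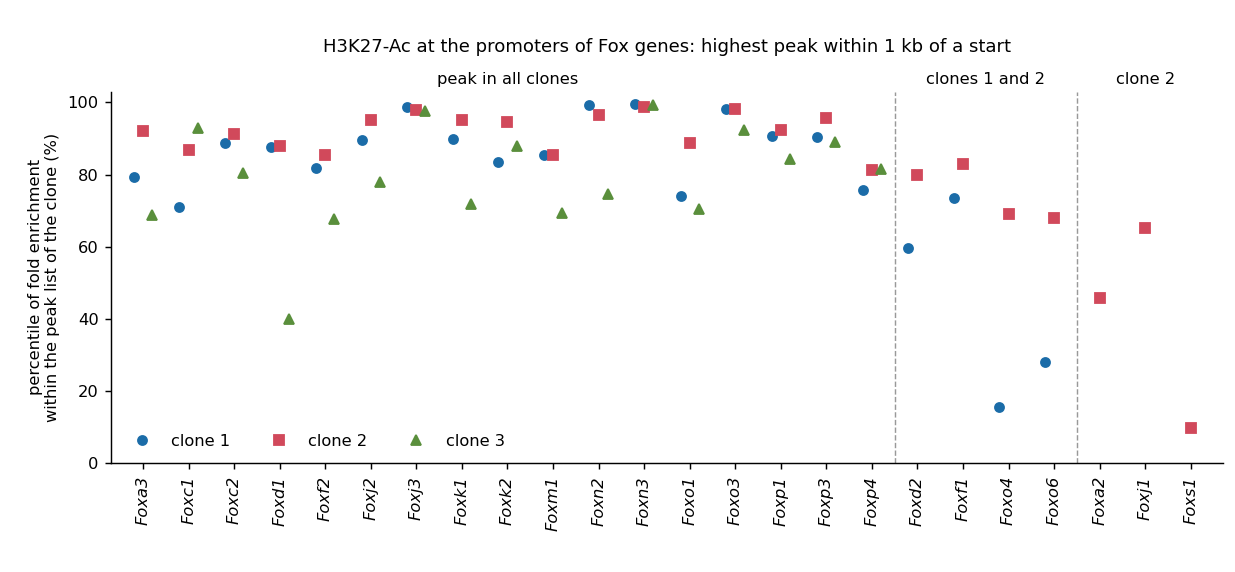
Fold enrichment of the highest promoter peak of 24 of the 25 Fox genes with one, as its percentile (%, y axis) among all peaks of the same clone; points are clones and dashed lines separate genes by the clones that had a peak. *Foxj3*, *Foxn3* and *Foxo3* lie at 92.3% or above in each clone, while *Foxd1* falls to 39.9% in clone 3.

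Among the 17, the highest promoter peaks had median fold enrichments of 25.3, 50.4 and 8.88 and widths of 2092, 2184 and 1599 bp in clones 1, 2 and 3. The 10209 protein-coding genes marked in all clones had 19.8, 45.2 and 8.45, and 1276, 1479 and 1073 bp. The marked members were longer by median: the 17 had medians of 49.8 kb and 3 annotated starts. The 19 members without a promoter peak had 3.315 kb and 1. Their lengths overlapped, with 2.725 to 597 kb in the 17 and 0.867 to 541 kb in the 19. For all protein-coding genes the medians were 24.8 kb and 5 starts when marked and 10.0 kb and 2 starts when not. A gene with more starts has more windows in which a peak can count.

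Foxo genes, the growth-restraining targets of AKT, were split as a group. *Foxo3* had a promoter peak with fold enrichments of 44.1, 76.7 and 12.4 (219, 389 and 117 ChIP reads) in clones 1, 2 and 3, and the peak was 4117, 5173 and 4156 bp wide. It lay at the 96.2 ± 3.36 percentile (SD, n = 3 clones) and covered the whole window printed above. *Foxo1* had 14.7, 41.0 and 7.30 (67, 189 and 66 reads), at the 77.8 ± 9.69 percentile. In clone 1 this peak began 3 bp after the start base, and in the other clones it covered it. *Foxo4*, on the X chromosome, had a narrow peak of 249 bp with a fold enrichment of 4.75 and 24 reads in clone 1, one of 1219 bp with 12.3 and 67 reads in clone 2, and none in clone 3. *Foxo6* had 5.56 (37 reads) in clone 1, 11.7 (51 reads) in clone 2 and none in clone 3. *Foxo6* also had 4 peaks in its body in clones 1 and 2 and 0 in clone 3, where the nearest peak was 30.7 kb from its start. The 2 members marked in all clones were thus the higher of the 4 in each list.

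The genes around them were marked throughout. Of 14 genes that control Foxo proteins, through PI3K and AKT or by other routes, 14 had a promoter peak in all 3 clones. Among them was *Sgk1*, a kinase that acts beside AKT (54.9, 78.1 and 17.5-fold). Of 16 known Foxo target genes, 15 did, with *Trim63*, a muscle ubiquitin ligase, as the exception in each clone. *Cdkn1b*, which encodes the cell cycle inhibitor p27, had 22.6 and 63.0-fold in clones 1 and 2, and its highest peak in clone 3 reached 3.51-fold, at the 7.33 percentile. All genes had 46.5%, as above, and these lists were chosen with earlier results of these data known.

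*Foxm1*, the driver of mitotic genes, had fold enrichments of 22.2, 33.2 and 7.13 (121, 230 and 62 reads) in clones 1, 2 and 3, at the 80.1 ± 9.29 percentile. Its start lies 56 bp from the start of *Rhno1*, on the opposite strand, and the summits were 18, 7 and 41 bp from the start of *Rhno1* and 137, 106 and 231 bp from that of *Foxm1*. The mark at this shared promoter cannot be divided between both genes. Of 13 mitotic targets of *Foxm1*, 12, 13 and 10 had a promoter peak in clones 1, 2 and 3 and 9 in all clones, where all genes had 49.8%, 56.9%, 48.1% and 46.5%. *Aurkb*, *Cdc25b* and *Cenpa* lacked a peak in clone 3 and *Cenpf* in clone 1, and none of the 13 lacked one in clone 2.

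*Foxk1* and *Foxk2*, which occupy promoters of metabolic and autophagy genes, were marked alike at their starts and unlike in their bodies. The promoter peaks of *Foxk1* had 26.6, 60.4 and 7.48-fold (131, 306 and 118 reads) and those of *Foxk2* 20.6, 58.5 and 10.7-fold (123, 296 and 104 reads). *Foxk1* had 10, 33 and 7 peaks in its 60.5 kb body, which covered 18.1%, 49.1% and 11.1% of it, whereas *Foxk2* had 1 peak in each clone, that of the promoter, in 49.9 kb. *Foxk1* had the most bases under peaks of all members, 15.3, 31.4 and 8.71 kb within 50 kb of its outermost start, and no other protein-coding gene starts in that window. Far inside the gene, peaks with summits 23.8, 23.4 and 23.8 kb after the start lay at the 73.5, 92.2 and 63.2 percentile. Others with summits 39.7, 38.7 and 38.6 kb after it lay at the 93.2, 87.5 and 53.1 percentile. Clone 3 had a separate peak with its summit at 39.7 kb, at the 42.6 percentile.

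*Foxn2* and *Foxn3*, repressors of the Foxn subfamily, had some of the highest enrichments. *Foxn3* had 55.8, 81.1 and 19.4-fold (233, 344 and 156 reads) at the 99.1 ± 0.458 percentile, the highest mean of the 17. This peak lay at a GENCODE start 57002 bp from the RefSeq start, and it covered 100% of the window printed for it and 0% of the RefSeq window in each clone. *Foxn2* had 53.0, 66.3 and 7.88-fold (224, 281 and 150 reads), at the 99.4, 96.4 and 74.7 percentile. *Foxn1* and *Foxn4* had no promoter peak. *Foxj3* had 46.7, 75.0 and 16.3-fold (218, 348 and 151 reads) at the 98.0 ± 0.546 percentile, and none of its peaks lay within 1 kb of its outermost start, since they covered 8 of its 10 starts further into the gene. *Foxj2* had 26.3, 60.4 and 8.415-fold (122, 280 and 95 reads). *Foxj1*, the master gene of motile cilia, had a peak of 493 bp in clone 2 (10.6-fold, 47 reads) and none in clones 1 and 3.

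Of the Foxp genes, *Foxp1*, a repressor with roles in hair follicle stem cells, had the most peaks, with 60, 47 and 39 in its body of 597 kb, and 7, 4 and 5 peaks within 1 kb of its 22 starts. Its highest promoter peak reached 27.6, 50.4 and 9.72-fold (128, 283 and 102 reads). In clone 1 this peak covered the outermost start, with its summit 1210 bp from it. In clones 2 and 3 the highest peak lay at a start 494 kb further into the gene. The RefSeq windows at these ends were covered to 100% in every clone. *Foxp4* had 15.5, 24.8 and 9.07-fold (144, 229 and 85 reads) at its outermost start. *Foxp2*, the gene of the brain and lung, had no peak within 50 kb of its outermost start or in its body of 541 kb, and the peak nearest to that start was 819 kb from it in each clone. *Foxp3*, the factor of regulatory T cells, counted as marked with 27.4, 63.4 and 11.1-fold (135, 286 and 88 reads). Its summits lay 137, 78 and 62 bp from the start of *Ppp1r3f* and 467, 526 and 542 bp from the upstream GENCODE start of *Foxp3*, while the nearest RefSeq start of *Foxp3* was 4494, 4685 and 4437 bp from any peak. The blood marker *Ptprc* and the T cell gene *Cd3e* had no promoter peak in any clone.

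Besides *Foxp3* and *Foxm1*, 2 members had summits nearer to another gene in each clone with a peak. *Foxa3*, a liver factor, had 17.6, 50.4 and 7.08-fold (70, 213 and 55 reads), with summits 241, 235 and 197 bp from the start of *Sympk* and 1129, 1123 and 1085 bp from its own. The nearest peak was 0.886, 0.646 and 0.277 kb from the start, in clone 3 a lower peak (5.06-fold, 46 reads) than the one above, and none reached the gene body. *Foxd2* had summits 93 and 159 bp from its antisense neighbour *Foxd2os* and 291 and 225 bp from its own start. In the other 21 of the 25 members with a promoter peak the own start was the nearer one in some clone. Another start can still be close. That of the lincRNA *1700018A04Rik* lies 24 bp from *Foxf2*, with summits 106, 254 and 259 bp from it and 82, 230 and 235 bp from *Foxf2*. A start of the protein-coding gene *Frg2f1* lies 132 bp from one of *Foxj3*. Summits were 598, 612 and 547 bp from *Frg2f1* and 348, 362 and 297 bp from *Foxj3*. The mark there cannot be divided between the genes either.

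Of the factors of mesenchyme, *Foxc1* and *Foxc2* had peaks over most of the gene, and the others had them over less of it or not at all. *Foxc1*, which acts in dermal and craniofacial mesenchyme and in hair follicle stem cells, had 13.3, 35.8 and 12.7-fold (123, 332 and 120 reads), with peaks of 3799, 3908 and 2297 bp. Peaks covered 89.5 ± 3.67% (SD, n = 3) of its body of 5.84 kb, including a further peak 4.87, 4.715 and 4.85 kb after the start that was the higher of the pair in clone 2 (51.4-fold). *Foxc2*, a gene of lymphatic and mesenchymal cells, had 25.3, 47.8 and 8.88-fold (138, 268 and 87 reads), and 83.7 ± 11.4% of its body was covered. In clone 3 the peak began beyond the start base, 0.026 kb into the gene. *Foxf2* had 19.3, 32.6 and 6.92-fold (77, 150 and 60 reads) with 54.7%, 51.1% and 22.2% of its body covered. *Foxd1*, a gene of stromal progenitors and of dermal fibroblasts, had 24.4 and 39.0-fold (120 and 271 reads) in clones 1 and 2. In clone 3 it had 4.86-fold (44 reads), a peak of 563 bp that did not cover the start. Peaks covered 32.2 ± 12.8% of its body (SD, n = 3).

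*Foxf1*, the partner of *Foxf2*, had 14.4-fold (63 reads) and 27.7-fold (125 reads) in clones 1 and 2 and no promoter peak in clone 3, where the nearest one was 23.2 kb away. *Foxf1*, *Foxc2* and *Foxl1* lie in this order within 46.3 kb of chromosome 8. This span held 5, 11 and 4 peaks, which covered 21.3%, 28.0% and 12.8% of it. The peak with the highest fold enrichment there (29.5, 50.9 and 12.7) covered starts of *Mthfsd*, a gene between *Foxf1* and *Foxc2*. *Foxl1* had no promoter or body peak, and the nearest peak ended 1.44, 1.51 and 1.77 kb before its start. With nearby peaks merged to domains, the domain over *Foxc2* and *Foxl1* ranked 107, 271 and 205 by bases under peaks (11.7, 15.4 and 7.105 kb). *Foxf1* starts 22.9, 14.3 and 23.2 kb from this same domain. These members and *Foxf1* were the 3 with a start within 50 kb of a domain of the top 300 in all clones (1.55% of all genes). The 3 are neighbours that share 1 domain in each clone, so they are not separate cases to set beside that share. The merging distance decides this count, which was 0 at 5 kb and 1 at 20 kb, on either side of the distance used. Control reads at summits on chromosome 8 were 1.35, 1.34 and 1.38 times those of the other autosomes, and their part in these values was not tested.

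**Figure D2:**
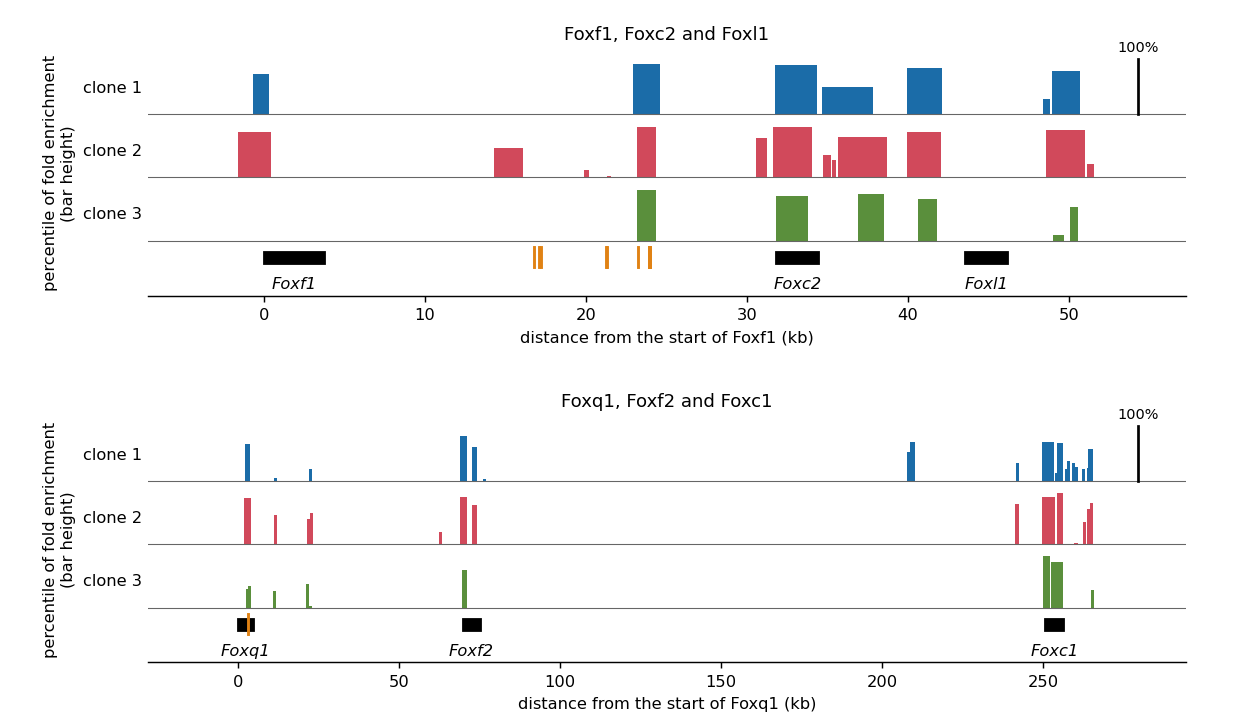
H3K27-Ac peaks of each clone across the Fox gene groups of chromosome 8 (top) and chromosome 13 (bottom), against distance in kb from the start of the leftmost gene; bar height is the percentile of fold enrichment in that list (scale bar 100%), bar width the peak, with narrow peaks drawn at 0.25 kb (top) and 0.9 kb (bottom), black boxes are Fox genes and orange lines starts of other protein-coding genes. Clone 3 has no bar at *Foxf1*, and all clones have bars over *Foxc2* and *Foxc1* and none at the start of *Foxl1*.

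*Foxq1*, *Foxf2* and *Foxc1* lie within 256 kb of chromosome 13, with 64.8 kb and 175 kb between them, and this span was sparser, with 12, 10 and 8 peaks over 5.98%, 5.99% and 4.12% of it. *Foxq1* had no promoter peak. Its body held 1, 1 and 2 peaks, which began 2.02, 1.73 and 2.44 kb after its start and reached 11.9, 29.5 and 4.77-fold, over a start of the gene *A530084C06Rik* in each clone. *Foxd2* and *Foxe3* are neighbours on chromosome 4, with 16.3 kb between them. The promoter peak of *Foxd2* had 9.61 and 22.3-fold (43 and 102 reads) in clones 1 and 2, *Foxe3* had none, and the span of both genes held no peak in clone 3.

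Of the members marked in clone 2 alone, *Foxa2*, an endoderm factor, had 6.67-fold (28 reads) with a summit 163 bp from an inner start, and no peak covered its outermost one. *Foxs1*, a gene of pericytes and sensory neurons, had 4.26-fold (15 reads), at the 9.82 percentile of that list. This list was the longest, and with the same number of peaks taken per clone the peak of *Foxs1* was lost and the other members kept their counts of clones.

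The 19 members without a promoter peak were *Foxa1*, *Foxb1*, *Foxb2*, *Foxd3*, *Foxd4*, *Foxe1*, *Foxe3*, *Foxh1*, *Foxi1*, *Foxi2*, *Foxi3*, *Foxl1*, *Foxl2*, *Foxn1*, *Foxn4*, *Foxp2*, *Foxq1*, *Foxr1* and *Foxr2*. Among them, 17 had no body peak either, and *Foxn1* and *Foxq1* had one in all 3 clones. Over the family a body peak was present in all clones for 18 members (40.9%, with 48.3% of all genes) and in none for 19 (43.2%, with 38.5%). For 9 members no clone had a peak within 50 kb of the outermost start: *Foxa1*, *Foxb1*, *Foxd3*, *Foxi1*, *Foxi2*, *Foxi3*, *Foxn4*, *Foxp2* and *Foxr2* (20.5%, with 23.1% of all genes). The nearest peaks were 58.8 to 58.9 kb from *Foxd3*, 111 kb from *Foxi3* and 316 kb from *Foxa1* in each clone.

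Of the skin and hair genes of this set, *Foxq1* had peaks over 36.0 ± 13.5% of its body (SD, n = 3), as described above. *Foxn1* had 4, 9 and 2 peaks in its body of 29.0 kb, which covered 13.5 ± 11.0% of it. The highest was 22.5 to 22.9 kb after the start (12.6, 25.6 and 7.78-fold), and the nearest peak lay 3.085, 3.34 and 16.0 kb from the start. *Foxe1* had no peak closer than 38.3, 27.5 and 27.003 kb. In its window all clones had a peak 38.5, 38.5 and 38.4 kb before the start (11.0, 28.8 and 4.49-fold) and a higher one 46.0, 45.7 and 46.0 kb after it (30.4, 77.9 and 17.3-fold), which lay at the start of *Trmo*, the only other protein-coding gene to start there. *Foxi3* and *Foxd3* had none within 50 kb.

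**Figure D3:**
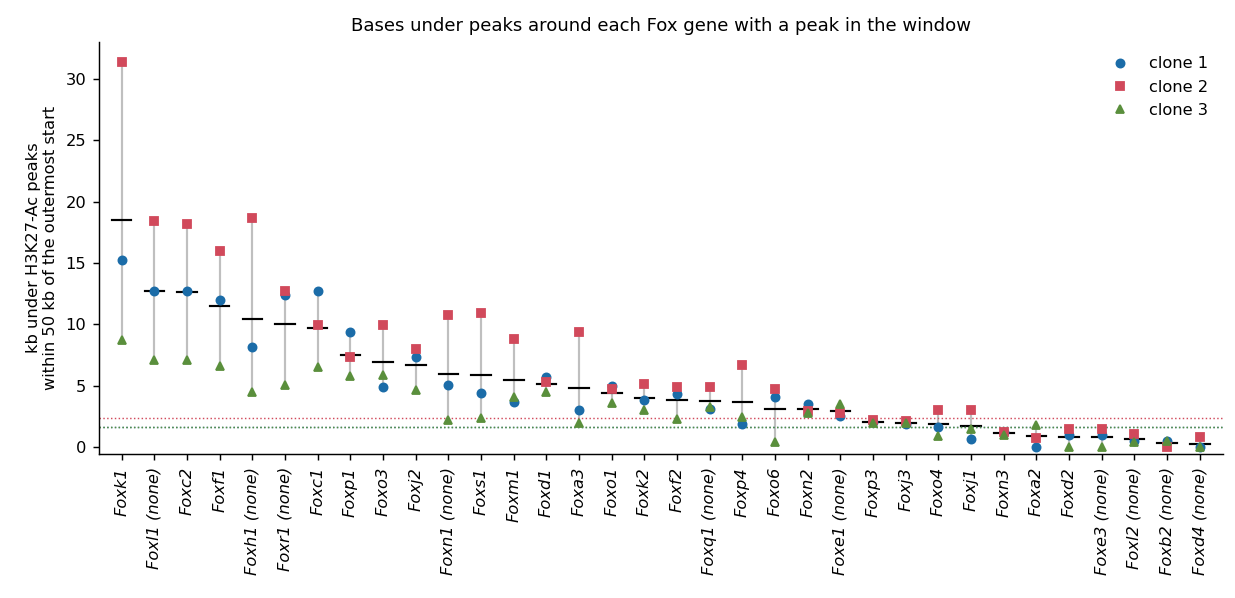
Bases under H3K27-Ac peaks (kb, y axis) within 50 kb on either side of the outermost start, for 34 of the 35 Fox genes with a peak there; points are clones, black bars their means, grey lines their ranges, dotted lines the medians of all protein-coding genes in each clone, and "(none)" marks genes without a promoter peak. *Foxk1* is highest in clone 2 at 31.4 kb, and *Foxl1*, *Foxh1* and *Foxr1* rank high without a promoter peak.

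The bases under peaks within 50 kb of a start had a median over the 44 members of 2.28, 3.01 and 1.99 kb in clones 1, 2 and 3, where all protein-coding genes had 1.61, 2.34 and 1.62 kb. The value was highest in clone 2 for 27 members and lowest in clone 3 for 24. The whole lists have the same order, with 26.9, 39.8 and 26.3 Mb under peaks in clones 1, 2 and 3. These counts of members were not made over all genes, so they are not a trait of the family. For the 17 marked members the medians were 4.296, 6.68 and 3.56 kb with 3.202, 4.33 and 3.01 kb for all genes marked in 3 clones. For the 19 unmarked members they were 0 kb in each clone, as for all unmarked genes. The highest values among the unmarked were those of *Foxl1*, *Foxh1* and *Foxr1*. *Foxl1* had 12.7, 18.4 and 7.105 kb, from the group described above. *Foxh1*, a mediator of Nodal signals, had 8.13, 18.7 and 4.45 kb with 10 other protein-coding genes starting in its window, and 10.3%, 18.1% and 15.6% of these bases were in peaks more than 1 kb from their starts. Its nearest peak was 1.16, 1.25 and 1.68 kb from its start, just outside the limit of 1 kb, and control reads at summits on its chromosome, 15, were 1.305, 1.29 and 1.35 times those of the other autosomes. *Foxr1* had 12.4, 12.7 and 5.07 kb with 6 such genes, and 20.6%, 18.6% and 9.78% were away from their starts. For *Foxc1*, *Foxk1*, *Foxo3* and *Foxo6* this share was 100% in each clone, since no other protein-coding gene starts in their windows. The same held for *Foxf2*, *Foxn2*, *Foxn3*, *Foxo1*, *Foxp1* and *Foxp4*.

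CpG content was compared where the RefSeq table held a promoter window, which was so for 28 of the 44 members, 13 of them marked in all clones and 13 in none. The ratio of observed to expected CpG had a median of 0.804 in the marked members, with a range of 0.294 to 1.28, and 0.806 in the 8068 protein-coding genes marked in all clones. The members without a peak had a median of 0.619 (0.151 to 0.929), with 0.220 in the 6742 unmarked genes. A ratio of at least 0.6 was found in 10 of the 13 marked and in 7 of the 13 unmarked members, with 80.6% and 14.5% of all genes in these classes. The unmarked members with such a ratio were *Foxa1*, *Foxi3*, *Foxd3*, *Foxl2*, *Foxn4*, *Foxd4* and *Foxr1*, and the windows of the top 3 are those printed above. Of the marked members below it, *Foxp3* and *Foxn3* had windows that no peak covered, and the outermost window of *Foxp1* was covered in each clone. Not all windows of the marked members at or above it were covered either. That of *Foxa3* (0.619) was covered in no clone and that of *Foxd1* (0.624) in clones 1 and 2 only. The window of *Foxo1* was covered to 47% in clone 1. The lowest ratio of the marked members, 0.294, is that of the RefSeq window of *Foxn3*. Its printed GENCODE window under the peak had a ratio of 0.805.

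**Figure D4:**
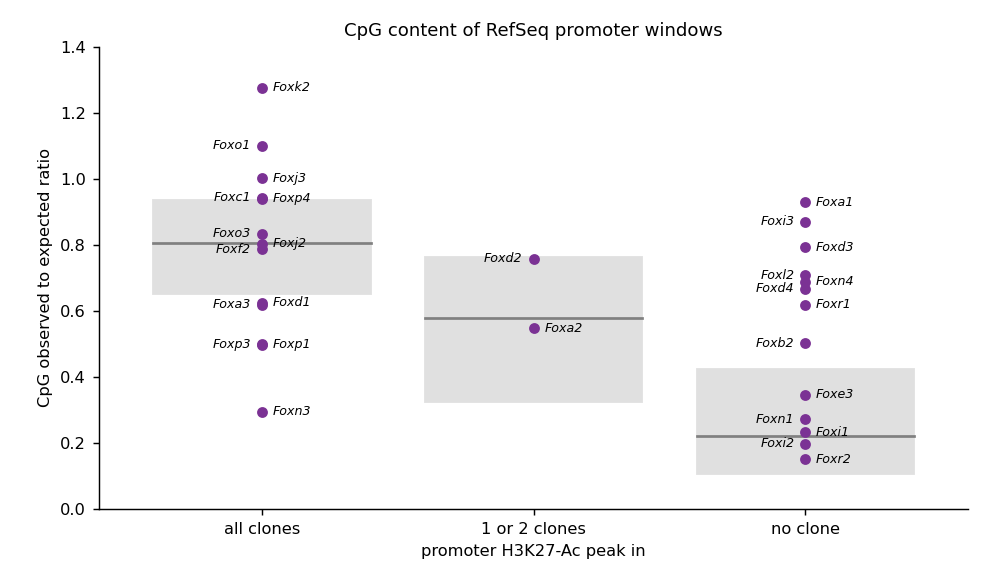
Ratio of observed to expected CpG (y axis) in the 300-base RefSeq promoter windows of the 28 Fox genes with an entry (purple points), by the clones with a promoter peak; grey boxes and lines give the quartiles and medians of all protein-coding genes of the same class. *Foxa1*, *Foxi3* and *Foxd3*, chosen as the highest of the unmarked members, lie above the upper quartile of 0.425 of unmarked genes. *Foxl2*, *Foxn4*, *Foxd4*, *Foxr1* and *Foxb2* do so too. The RefSeq window of *Foxn3*, which no peak covers, lies below the lower quartile of 0.651 of marked genes. The GENCODE window of *Foxn3* under its peak (ratio 0.805) is not plotted.

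The letters of the forkhead motif, TGTTTAC on either strand, occurred in 1 of the 28 windows (3.57%, with 2.96% of 16539 windows of protein-coding genes), that of *Foxa1*, where the printed strand reads GTAAACA (in lower case above) from position -141. The AP-1 letters TGANTCA occurred in 2 (7.14%, with 7.00%), *Foxe3* and the RefSeq window of *Foxn3*, there at position 43 from the start. The TCF/LEF letters CTTTGAT occurred in 0 of the 28 (3.16% of all windows). No window held matches to more than 1 of these motifs, and none was present at the GENCODE start of *Foxn3*. These are descriptions of letters in a short window.

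Set beside other families of developmental factors under the same rule, 5 of 19 Sox genes (26.3%), 13 of 17 Klf genes (76.5%) and 11 of 39 Hox genes (28.2%) were marked at a start in every clone, with 38.6% of the Fox genes. No promoter peak in any clone was found for 10 Sox (52.6%), 3 Klf (17.6%) and 19 Hox genes (48.7%), with 43.2% of the Fox genes. These shares were not tested against each other. The median bases under peaks within 50 kb were 1.16, 1.83 and 1.19 kb for Sox, 4.67, 5.14 and 3.82 kb for Klf and 10.9, 11.8 and 3.27 kb for Hox genes, which lie close together and share peaks.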

How the data were processed

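H3K27-Ac ChIP-seq peak lists of 3 clones were used. Per the labels and the study's methods, the authors aligned the single-end reads by Bowtie2 against GRCm38, and the submitters' processing notes name MACS2 2.1.1 for peaks. The 2 libraries of clone 3 were merged, and peak names of clones 1 and 2 show a filter for mapping bias between alleles. As deposited, fold enrichment is the ratio of ChIP to local background at the summit, and the deposited −log10 p-value and q-value belong to the same summit; the lowest −log10 q was 1.302, 1.33 and 1.35. No IgG library of clone 2 was among the samples, so the control behind the list of clone 2 is not known from them. Control reads enter only through these values.

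Scripts used matplotlib 3.10.9, scipy 1.17.1, pandas 2.3.3, numpy 2.4.6 and Python 3.11.15. Peaks outside the autosomes, X and Y were dropped (5, 21 and 3), and the rest were set against all transcript starts and bodies of GENCODE M21 protein-coding genes, by an overlap of at least 1 bp, with the most enriched peak within 1 kb given per gene. The outermost start is the end of the gene model. Reads were solved from fold enrichment and p as whole numbers to within 0.01 read. This was checked on simulated data, and 0.562%, 0.198% and 0.485% of peaks had more than 1 solution. Promoter windows are RefSeq's (GRCm38.p6). Values are given per clone, with SD over clones where stated, and no test was made, since there is 1 condition. The members, gene lists, motifs and sequences followed rules made with earlier results of these data known: every member enters the counts (1 is not reported here by name or in the plots), and values are given for those with promoter peaks, those known in skin and those with the most bases under peaks. The second *Foxn3* window was chosen after its values were seen. Alternatives were other distances, start definitions, a −log10 q of at least 5, equal peak numbers, other windows and joining distances, and leaving out each clone.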

Additional observations from a re-analysis of the deposited data

How the results depend on the processing

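The 10 counts and medians had 60 alternatives, of which 53 stayed within 1.5 times the value (counts) or within the SD of 0.527 kb over clones (medians). The median kb under peaks moved to 4.88 in clone 2 with the whole gene and 50 kb on either side, to 2.41 and 1.11 kb in clones 2 and 3 within 25 kb, and to 1.45 kb in clone 3 at a −log10 q of at least 5. Members near a top 300 domain in all clones went from 3 to 0 with peaks joined over 5 kb and to 1 over 20 kb. Leaving out 1 clone gave 3 to 5 such members, 17 to 21 marked in all remaining clones, 19 to 23 in none and 18 to 21 with a body peak in all. The cause was not tested, except that fewer lists make "all" easier to meet. *Foxh1*, *Foxl1* and *Foxq1* gained promoter peaks in all clones within 2.5 kb. *Foxa3* kept its peak in 1 clone within 500 bp, and *Foxj3* had none by its outermost start alone. The start base itself was covered in no clone for *Foxa3* and *Foxj1*, in 1 for *Foxo4*, and in 2 for *Foxc2*, *Foxd1* and *Foxo1*. At a −log10 q of at least 5, *Foxo4* kept 1 clone and *Foxs1* none. Under the 6 alternative rules for a promoter peak, 12 members stayed marked in 3 clones and 16 in none. No paired analysis was possible because there is 1 group and no test. Unknown library totals and the threshold of the calls limit what a missing peak means.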
